A study of Homo sapiens with 12 samples.

Results

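Transcripts of 36 genes of homologous recombination and the DNA damage response were followed in sorted SW1990 and CFPAC-1 cells. The genes were chosen by name, from *BRCA1* and *BRCA2* to the checkpoint kinases. All 36 were among the 23346 genes of the RPKM table, and all 36 were among the 16236 genes with a mean of at least 0.1 RPKM over the 12 samples, the filter used for every test. RPKM is the number of reads scaled to the length of the gene and to the size of the library, so that levels can be compared between genes of different length.

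SW1990 and CFPAC-1 are established human pancreatic adenocarcinoma cell lines. Both were grown as monolayers in medium with serum, and both contain cells with and without the GCTM-5 antigen, a cell surface glycoprotein complex related to sialyl Lewis A. Cells were stained with the GCTM-5 antibody and sorted, and RNA was sequenced from 3 samples in each of 4 groups, namely GCTM-5 positive and GCTM-5 negative cells of each line. The question was which transcripts differ between antigen positive and antigen negative cells of the same line. The labels name no engineered allele and no drug for any group, and all groups went through staining and sorting. According to the labels, only the most strongly stained and the unstained cells were collected, so cells of intermediate staining are in none of the groups. The study's methods describe the sorts as done in triplicate, but neither they nor the labels say that the 3 samples of a group came from separate cultures, and the p-values therefore measure the spread between these samples, which may be technical. Library totals, recovered from the steps of the RPKM values, ran from 9969697 reads in CFPAC-1 positive sample 3 to 26159330 in CFPAC-1 positive sample 1, and each of the 36 genes had between 73 and 5085 reads in a sample. The 8 ductal epithelial markers were at 1 RPKM or more in all 4 groups. The summed level of 6 leukocyte markers was 15.4 to 48.6 RPKM in SW1990 samples and 112 to 167 RPKM in CFPAC-1 samples. Of these 6, 1 or 2 were at 1 RPKM or more in a group, and the defining markers *PTPRC* and *CD3E* had a mean below 0.1 RPKM in each.

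Homologous recombination repairs a DNA double-strand break by copying the sister chromatid, and is therefore active mainly while cells replicate their DNA and before they divide. The MRN complex (MRE11, *RAD50* and *NBN*) finds the break, nucleases and helicases resect its ends, and *BRCA1* with its partners brings *BRCA2* and the strand exchange factors to the single strand. The Fanconi anaemia pathway feeds lesions at crosslinked DNA into the same route. The kinases *ATM* and *ATR*, with *CHEK2* and *CHEK1* below them, signal the damage and halt the cell cycle. Many genes of the pathway are transcribed in late G1 and S phase under E2F factors, whereas the proteins that sense breaks are present throughout the cycle. Pancreatic adenocarcinoma is one of the tumours in which inherited defects of this pathway occur.

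Promoter sequences of 5 of these genes are shown as examples with and without an E2F letter pattern. They do not show that the pattern goes with the direction of change. Its share by gene was 25% both among genes called higher in positive CFPAC-1 cells and among the others. RefSeq windows of 300 bases, from 250 before the annotated start to 50 after it on GRCh38.p14, were found for 32 of the 36 genes, with 45 start sites in all. The search was for TTTCCCGC or TTTCGCGC or TTTGCCGC or TTTGGCGC on either strand. Matches are in capitals, read on the strand of the gene. *EXO1* lies at chr1:241847954-241848253 on the plus strand, *XRCC2* at chr7:152676092-152676391, *TOPBP1* at chr3:133661892-133662191 and *FANCC* at chr9:95317660-95317959 on the minus strand, and all 4 were higher in GCTM-5 positive CFPAC-1 cells. *ATM*, at chr11:108222817-108223116 on the plus strand, was lower in positive cells of both lines, and neither of its windows held a match. The other window of *EXO1*, at chr1:241848481-241848780, and that of *FANCC*, at chr9:95317205-95317504, held no match either.
*EXO1*: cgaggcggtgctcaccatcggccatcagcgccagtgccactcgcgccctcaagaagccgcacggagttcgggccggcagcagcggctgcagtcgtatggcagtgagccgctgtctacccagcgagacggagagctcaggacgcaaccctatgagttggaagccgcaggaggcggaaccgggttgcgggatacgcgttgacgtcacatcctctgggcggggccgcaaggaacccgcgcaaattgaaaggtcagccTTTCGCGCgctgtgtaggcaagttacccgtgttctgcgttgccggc
*XRCC2*: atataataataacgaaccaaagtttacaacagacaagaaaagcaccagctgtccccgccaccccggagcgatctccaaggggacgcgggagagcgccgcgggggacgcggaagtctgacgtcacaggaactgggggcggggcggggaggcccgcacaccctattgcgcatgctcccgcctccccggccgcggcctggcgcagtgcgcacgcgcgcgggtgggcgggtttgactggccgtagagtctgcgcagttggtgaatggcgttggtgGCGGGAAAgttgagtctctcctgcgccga
*TOPBP1*: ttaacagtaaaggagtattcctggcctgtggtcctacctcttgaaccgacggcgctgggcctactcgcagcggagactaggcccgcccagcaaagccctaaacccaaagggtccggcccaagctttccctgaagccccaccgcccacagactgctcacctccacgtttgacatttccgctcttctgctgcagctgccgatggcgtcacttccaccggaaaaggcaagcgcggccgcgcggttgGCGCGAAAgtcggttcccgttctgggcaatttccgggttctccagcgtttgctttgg
*FANCC*: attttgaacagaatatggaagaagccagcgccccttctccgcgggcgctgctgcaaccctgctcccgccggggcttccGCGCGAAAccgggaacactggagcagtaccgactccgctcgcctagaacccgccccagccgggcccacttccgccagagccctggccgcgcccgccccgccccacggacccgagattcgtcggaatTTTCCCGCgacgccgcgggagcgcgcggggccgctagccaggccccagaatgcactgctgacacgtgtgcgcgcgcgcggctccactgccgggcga
*ATM*: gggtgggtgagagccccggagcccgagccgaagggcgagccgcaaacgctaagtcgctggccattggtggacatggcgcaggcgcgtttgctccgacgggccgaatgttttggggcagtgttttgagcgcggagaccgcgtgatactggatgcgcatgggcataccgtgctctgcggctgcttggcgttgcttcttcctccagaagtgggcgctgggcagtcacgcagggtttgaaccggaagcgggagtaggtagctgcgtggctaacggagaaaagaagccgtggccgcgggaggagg

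The E2F pattern was found in 9 of the 45 windows (20%), compared with 3.31% of all 35116 promoter windows of this length. Counted by gene, it was found in 8 of 32 genes, namely *EXO1*, *XRCC2*, *TOPBP1*, *FANCC*, *FANCA*, *FANCD2*, *MSH6* and *PMS2*, compared with 3.99% of all genes with a window. Its share was 25% both among the 24 genes called higher in positive CFPAC-1 cells and among the 8 other genes with a window. For 41 of the 45 windows, the bases after the start were found in a GENCODE transcript of the gene. The window of *FANCD2* was not among these. The CCAAT box, counted on both strands, was in 51.1% of the windows against 34.6% of all windows, and the cell cycle homology region, TTTGAA or TTCGAA on either strand, in 11.1% against 16.4%. By gene, the CCAAT box was in 45.8% of the 24 genes called higher in positive CFPAC-1 cells and in 87.5% of the 8 others. Over all genes with a window its share was 39.7%. A match in a sequence is a description and says nothing of binding in these cells.

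The mean level over 12 samples ran from 1.75 RPKM for *FANCD2* to 39.1 RPKM for *MSH6*. *MSH6*, which recognises mismatches, was the highest of the 36 in all 4 groups, at 46.9 ± 4.94 RPKM in SW1990 negative, 51.2 ± 8.6 in SW1990 positive, 20.5 ± 2.7 in CFPAC-1 negative and 37.8 ± 3.81 in CFPAC-1 positive cells (mean ± SD, n = 3). *NBN* ranked second in the first 3 of these groups and stood behind *MSH6*, *XRCC3* and *UBE2T* in CFPAC-1 positive cells. In CFPAC-1 negative cells *MSH6*, *NBN* and *TP53BP1* formed the top of the order, and their samples overlapped. At the other end stood *FANCD2*, the lowest in 3 groups, and *BRCA2*, the lowest in CFPAC-1 negative cells at 1.03 ± 0.122 RPKM, where the samples of *FANCD2* (1.16 to 1.28 RPKM) lay just above those of *BRCA2* (0.907 to 1.15).

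In CFPAC-1, 26 of the 36 genes were higher in GCTM-5 positive than in negative cells and 1, *ATM*, was lower (limma, adjusted p under 0.05), whereas in SW1990 only 3 were higher and 2 lower. Over all genes tested, 22.3% were called higher and 14.2% lower in CFPAC-1, and 11.3% were called higher and 16.9% lower in SW1990. The median difference of the 36 genes was 0.91 on the log2 scale in CFPAC-1, compared with 0.05 over all genes, and 0.15 in SW1990, compared with -0.04 over all genes. As a ratio of mean RPKM, positive over negative, this ran from 0.571 for *ATM* to 4.3 for *EXO1* in CFPAC-1, with a median of 1.9, and from 0.588 for *ATM* to 1.54 for *FANCC* in SW1990, with a median of 1.1. Differences are on the scale of log2(RPKM + 0.1), and fold values below are 2 to that power.

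**Figure D1:**
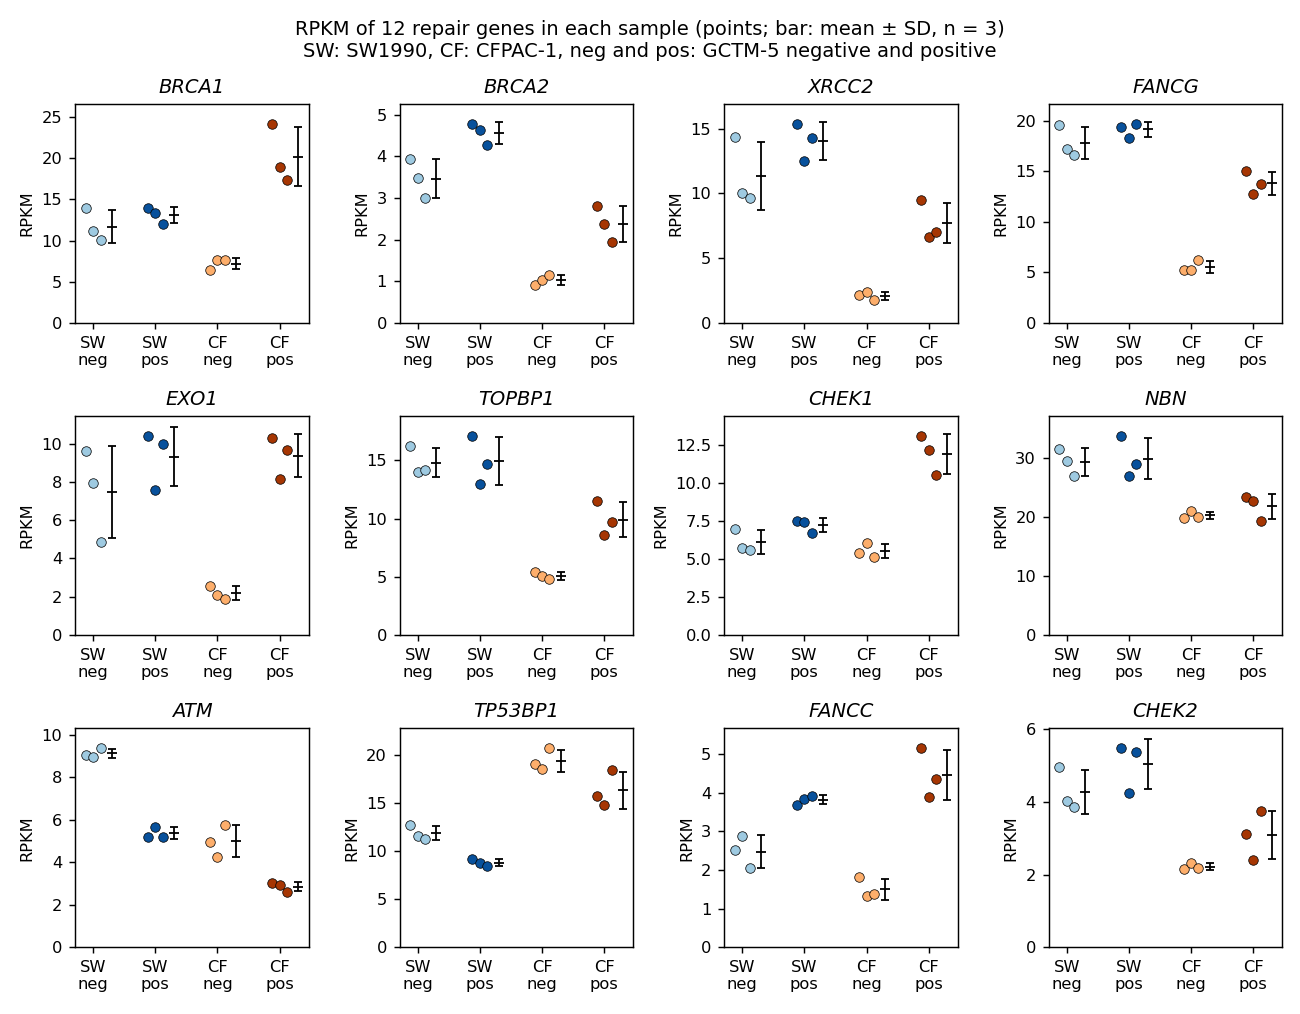
RPKM (vertical axis, from 0) of 12 of the 36 genes in each of the 12 samples. Points are samples 1 to 3 of each group, and the bar beside them is the mean ± SD. BRCA1, BRCA2, XRCC2, FANCG, EXO1, TOPBP1, CHEK1 and FANCC were higher in all CFPAC-1 positive than in all CFPAC-1 negative samples, whereas ATM was lower in the positive samples of both lines.

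The study's criterion was more than 2-fold and p under 0.01, without a statement of whether p was adjusted. Read here as an unadjusted p, the criterion gave 17 of the 36 genes higher and none lower in positive CFPAC-1 cells, against 5.65% and 4.13% of all genes. In SW1990 none passed it in either direction, against 4.59% of all genes higher and 7.48% lower. At an unadjusted p under 0.05 alone, limma gave 9 of the 36 higher and 2 lower in SW1990 and 29 and 2 in CFPAC-1. The share of all genes was not counted at this threshold, here or below, nor for voom with the study's criterion. Those counts therefore cannot be set against a background. With voom on the recovered reads, 0 passed the study's criterion in SW1990, and 17 were higher and 0 lower by it in CFPAC-1. All 3 positive samples lay above all 3 negative samples for 29 genes in CFPAC-1 and 10 in SW1990, and below for 2 genes in each, *ATM* and *TP53BP1*. The corresponding shares of all genes were 28.1% above and 20.4% below in CFPAC-1, and 17.9% above and 25.4% below in SW1990. An exact permutation test of 3 samples against 3 cannot give a p below 0.1, so the statements on single genes rest on the model fitted across all genes.

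**Figure D2:**
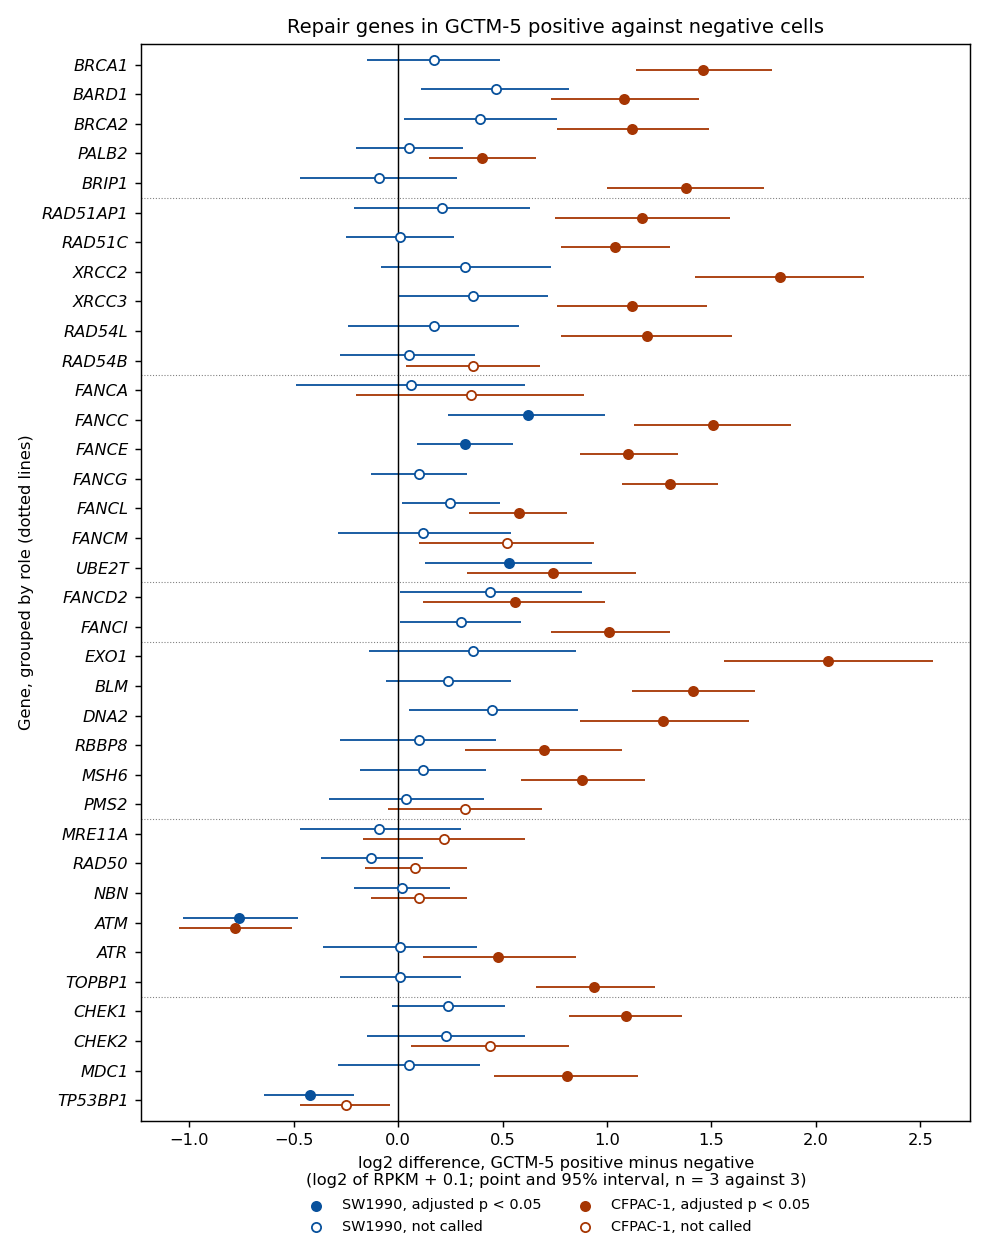
Difference of GCTM-5 positive minus negative cells (horizontal axis, log2 of RPKM + 0.1) for each of the 36 genes, with the 95% interval, in SW1990 (blue) and CFPAC-1 (brown). Filled points have an adjusted p under 0.05. In CFPAC-1 most genes lie between 0.3 and 2.1, in SW1990 most lie near 0, and ATM lies near -0.8 in both.

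The genes of *BRCA1*, *BRCA2* and their partners all rose in positive CFPAC-1 cells. *BRCA1*, the ubiquitin ligase that opens the way for resection, was at 6.41, 7.58 and 7.6 RPKM in the 3 negative CFPAC-1 samples and at 24.2, 18.9 and 17.4 RPKM in the positive ones. The groups were far apart, and the difference was 2.76-fold (log2 1.46 ± 0.15 SE, adjusted p = 4.62e-05). In SW1990 *BRCA1* was at 13.9, 11.1 and 10.1 RPKM in negative and at 14, 13.3 and 12 RPKM in positive samples. These groups overlapped, and the difference of log2 0.17 had a 95% interval from -0.15 to 0.49. *BRCA2*, a mediator of strand exchange, was at 0.907, 1.02 and 1.15 RPKM in negative and 2.8, 2.37 and 1.95 RPKM in positive CFPAC-1 cells, a 2.18-fold difference (log2 1.12 ± 0.17, adjusted p = 0.000465). In SW1990 it was at 3.94, 3.48 and 2.99 RPKM in negative and 4.79, 4.64 and 4.27 RPKM in positive cells. The SW1990 groups did not overlap, but the difference of log2 0.39 (95% interval 0.03 to 0.76) was not called (adjusted p = 0.107).

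*BRIP1*, the helicase bound by *BRCA1*, was 2.6-fold higher in positive CFPAC-1 cells, where it reached 9.84, 7.57 and 5.72 RPKM against 2.81, 3.04 and 2.67 RPKM in negative cells (adjusted p = 0.000155). *BARD1*, the obligate partner of *BRCA1*, was 2.12-fold higher (adjusted p = 0.000466). *PALB2*, which joins *BRCA1* to *BRCA2*, moved least of this group, from 5.35, 5.56 and 5.71 to 7.45, 7.1 and 7.54 RPKM, or 1.32-fold (adjusted p = 0.0175), a call that was lost with samples centred on their medians, with quantile normalization, with the length trend removed and without CFPAC-1 negative sample 1. None of the 5 was called in SW1990, where *BARD1* just missed the threshold (log2 0.47, adjusted p = 0.051) and *BRIP1* had the only value below 0 (log2 -0.09).

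Of the 6 strand exchange genes, 5 rose in positive CFPAC-1 cells and none was called in SW1990. *XRCC2*, which acts in strand exchange, was at 2.13, 2.4 and 1.75 RPKM in negative and 9.48, 6.65 and 6.99 RPKM in positive CFPAC-1 cells. The lowest positive sample was far above the highest negative one, and the difference was 3.55-fold (log2 1.83 ± 0.19, adjusted p = 4.73e-05). In SW1990 the same gene stood at 14.4, 10.0 and 9.67 RPKM in negative and at 15.4, 12.5 and 14.3 RPKM in positive cells, so it was higher in every SW1990 sample than in any CFPAC-1 sample. *RAD54L*, a translocase that assists strand invasion, was 2.28-fold higher in positive CFPAC-1 cells, *RAD51AP1*, a DNA-binding helper of strand invasion, 2.25-fold, *XRCC3* 2.17-fold, and *RAD51C*, which forms a complex with *XRCC3*, 2.06-fold. *RAD54B*, related to *RAD54L*, was the exception. It was at 2.16, 2.31 and 2.32 RPKM in negative and 3.09, 3.26 and 2.51 RPKM in positive CFPAC-1 cells, and the difference of log2 0.36 was not called (adjusted p = 0.0737). By the GENCODE annotation 76.7% of the exonic bases of *XRCC3* lie over those of *KLC1* on the opposite strand, and 66.0% of those of *RAD54B* over *FSBP* on the same strand. Opposite-strand overlap is 22.7% for *MSH6* with *FBXO11*, 19.9% for *RAD54L* with *LRRC41* and 19.6% for *FANCA* with *ZNF276*. The labels name a strand-specific kit, but whether strand was used in counting is not stated, so reads of these pairs may not have been told apart.

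The 7 genes grouped here as the Fanconi core complex, its anchors and its conjugating enzyme held all 3 genes called higher in positive SW1990 cells. These 3 are 8.33% of the 36, compared with 11.3% of all genes. The grouping was made with earlier results of these data known. *FANCC*, a subunit of the core, was at 2.52, 2.87 and 2.04 RPKM in negative and 3.69, 3.84 and 3.92 RPKM in positive SW1990 cells. All positive samples were above all negative ones, and the difference was 1.53-fold (log2 0.62 ± 0.17, adjusted p = 0.0188). In CFPAC-1 it went from 1.82, 1.32 and 1.38 to 5.15, 3.88 and 4.35 RPKM, or 2.84-fold (log2 1.51 ± 0.17, adjusted p = 9.44e-05). *FANCE*, which links the core to its substrate, was 1.25-fold higher in positive SW1990 cells (adjusted p = 0.0419) and 2.15-fold higher in positive CFPAC-1 cells (adjusted p = 3.6e-05). *UBE2T*, the ubiquitin-conjugating enzyme of the pathway, was at 16.2, 16.9 and 14.3 RPKM in negative and 22.8, 22.3 and 23.3 RPKM in positive SW1990 cells, and its adjusted p of 0.0499 was at the threshold. In CFPAC-1 *UBE2T* reached 29.5 and 24.3 RPKM in positive samples 1 and 2 but 15.2 RPKM in sample 3, against 13.2, 14.1 and 12.7 RPKM in negative cells (1.67-fold, adjusted p = 0.00893). The calls of *FANCE* and *UBE2T* in SW1990 were lost in 10 and 15 of 23 alternative analyses, among them those without SW1990 positive sample 1, 2 or 3. *FANCC* kept its call in 21 of 23 and lost it without SW1990 negative sample 3 or positive sample 3.

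*FANCG*, another core subunit, had the smallest p-value of the 36 in CFPAC-1. It was at 5.25, 5.18 and 6.23 RPKM in negative and 15.0, 12.7 and 13.7 RPKM in positive CFPAC-1 cells, a 2.46-fold difference (log2 1.3 ± 0.11, adjusted p = 1.5e-05), and at 16.6 to 19.7 RPKM in all 6 SW1990 samples. *FANCL*, the ubiquitin ligase of the core, was 1.49-fold higher in positive CFPAC-1 cells (adjusted p = 0.00168). *FANCA* and *FANCM* were not called in either line. *FANCA* samples 1 to 3 of the positive CFPAC-1 group, at 6.28, 3.18 and 5.97 RPKM, spread on both sides of the negative ones (3.69 to 3.95 RPKM), and the 95% interval of the difference ran from log2 -0.2 to 0.89. *FANCM*, which anchors the core to DNA, missed the threshold in CFPAC-1 (log2 0.52, adjusted p = 0.0507) although its samples did not overlap.

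The pair that forms the ID complex, the target of the core, was also called higher in positive CFPAC-1 cells, *FANCD2* only marginally. *FANCI* was at 6.64, 5.55 and 6.37 RPKM in negative and 14.1, 10.5 and 13.3 RPKM in positive CFPAC-1 cells (2.02-fold, adjusted p = 0.000196). *FANCD2*, with 1.16 to 1.28 RPKM in negative and 1.61 to 2.38 RPKM in positive cells, was 1.47-fold higher (adjusted p = 0.0468). Its call was lost in many alternative analyses, among them no filter, samples centred on their medians, a replicate block and separate fits. The call was also lost without any 1 of the CFPAC-1 negative or SW1990 positive samples. In SW1990 the positive samples of both were above all negative ones, by log2 0.3 (95% interval 0.01 to 0.59) for *FANCI* and 0.44 (0.01 to 0.88) for *FANCD2*, and neither was called.

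End resection and unwinding held the largest change of the 36 genes. *EXO1*, the exonuclease of long-range resection, was at 2.58, 2.1 and 1.87 RPKM in negative and 10.3, 8.14 and 9.68 RPKM in positive CFPAC-1 cells. The difference was 4.17-fold (log2 2.06 ± 0.23, adjusted p = 7.73e-05). In SW1990 it was at 9.59, 7.93 and 4.87 RPKM in negative and 10.4, 7.56 and 10.0 RPKM in positive cells, and these overlapped. *BLM*, the helicase that works with *EXO1* and *DNA2*, was 2.66-fold higher in positive CFPAC-1 cells (adjusted p = 3.43e-05), and *DNA2*, a nuclease and helicase, 2.42-fold (adjusted p = 0.000397). *RBBP8*, which encodes the resection factor CtIP, was 1.62-fold higher (adjusted p = 0.00833), from 3.8 to 4.07 RPKM in negative to 5.64 to 7.32 RPKM in positive cells.

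The mismatch repair genes among the 36 differed from each other. *MSH6* was at 23.6, 18.5 and 19.5 RPKM in negative and 42.2, 35.6 and 35.6 RPKM in positive CFPAC-1 cells (1.85-fold, adjusted p = 0.000553). *PMS2*, an endonuclease of mismatch repair, was at 2.28, 2.58 and 2.79 against 3.21, 3.93 and 2.58 RPKM, the groups overlapped, and the 95% interval of the difference was log2 -0.05 to 0.69. Neither was called in SW1990. *PMS2* has close pseudogene copies, as do *CHEK2* and *FANCD2*, and how reads that match several places were counted is not stated, so the levels of these genes are uncertain.

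The sensors of the break were called in neither line. *NBN*, *MRE11A* and *RAD50* encode the MRN complex. *NBN* was at 19.8, 21.0 and 19.9 RPKM in negative and 23.4, 22.6 and 19.3 RPKM in positive CFPAC-1 cells, and at 26.9 to 31.5 and 26.9 to 33.7 RPKM in SW1990. The 95% intervals in CFPAC-1 were log2 -0.13 to 0.33 for *NBN*, -0.16 to 0.33 for *RAD50* and -0.17 to 0.61 for *MRE11A*, and those in SW1990 -0.21 to 0.25, -0.37 to 0.12 and -0.47 to 0.3. A 2-fold change of any of the 3 lay outside these intervals in both lines.

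*ATM*, the kinase activated by double-strand breaks, was lower in positive cells of both lines. It was at 9.03, 8.97 and 9.37 RPKM in negative and 5.21, 5.68 and 5.21 RPKM in positive SW1990 cells, a ratio of 0.592 (log2 -0.76 ± 0.13, adjusted p = 0.00072). In CFPAC-1 it was at 4.97, 4.24 and 5.75 RPKM in negative and 3.01, 2.93 and 2.6 RPKM in positive cells, a ratio of 0.582 (log2 -0.78 ± 0.13, adjusted p = 0.000706). Each of the 6 positive samples lay below all negative samples of its line, and the call was kept in all 23 alternative analyses in each line. The difference between the 2 changes was log2 0.02, with a 95% interval from -0.36 to 0.41. No other of the 36 genes was called lower in both lines.

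*ATR*, the kinase for single-stranded DNA at stalled forks, was at 2.82, 2.02 and 2.81 RPKM in negative and 3.49, 3.76 and 3.48 RPKM in positive CFPAC-1 cells (1.4-fold, adjusted p = 0.0415), and this call was lost in 12 of 23 alternative analyses, among them those without any 1 of the 3 CFPAC-1 positive samples. In SW1990 its difference was log2 0.01 (95% interval -0.36 to 0.38). *TOPBP1*, the activator of *ATR*, was at 5.42, 5.04 and 4.78 RPKM in negative and 11.5, 8.56 and 9.68 RPKM in positive CFPAC-1 cells, or 1.92-fold higher (adjusted p = 0.000303). In SW1990 it was at 13.0 to 17.1 RPKM in all 6 samples, with a difference of log2 0.01.

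The checkpoint kinases and adaptors went several ways. *CHEK1*, the kinase downstream of *ATR*, was at 5.43, 6.07 and 5.14 RPKM in negative and 13.1, 12.2 and 10.5 RPKM in positive CFPAC-1 cells (2.13-fold, log2 1.09 ± 0.12, adjusted p = 9.43e-05). In SW1990 it was at 5.62 to 7.0 RPKM in negative and 6.69 to 7.51 RPKM in positive cells, and was not called (log2 0.24, 95% interval -0.03 to 0.51). *CHEK2*, the kinase downstream of *ATM*, was at 2.15, 2.32 and 2.17 RPKM in negative and 3.12, 2.41 and 3.74 RPKM in positive CFPAC-1 cells. The positive samples were above the negative ones, but the spread among them was wide and the difference of log2 0.44 was not called (adjusted p = 0.0673). *MDC1*, which binds the phosphorylated histone beside a break, was 1.75-fold higher in positive CFPAC-1 cells (adjusted p = 0.00217) and was not called in SW1990 (log2 0.05).

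*TP53BP1*, an adaptor that holds back resection, was the other gene below 0 in both lines. In SW1990 it was at 12.7, 11.6 and 11.3 RPKM in negative and 9.18, 8.77 and 8.5 RPKM in positive cells, a ratio of 0.745 (log2 -0.42 ± 0.1, adjusted p = 0.00657). In CFPAC-1 the values were 19, 18.5 and 20.7 against 15.7, 14.8 and 18.4 RPKM. These groups did not overlap either, but the difference of log2 -0.25 was not called (adjusted p = 0.0621). The SW1990 call was lost only when the trend of the differences with gene length was removed (log2 -0.3). By the annotation, 28.8% of the exonic bases of *TP53BP1* lie over *TUBGCP4* on the opposite strand.

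The 9 genes not called in CFPAC-1 were *RAD54B*, *FANCA*, *FANCM*, *PMS2*, *MRE11A*, *RAD50*, *NBN*, *CHEK2* and *TP53BP1*. Their 95% intervals together spanned log2 -0.47 to 0.94, so that a 2-fold change was outside the interval of each. In SW1990 the intervals of the 31 genes that were not called spanned log2 -0.49 to 0.88, and a 2-fold change was outside all of these too. The standard errors of single genes ran from 0.1 to 0.25 on the log2 scale.

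The change with the antigen was compared between the lines directly, as the difference in SW1990 minus that in CFPAC-1. It was called below 0 for 19 of the 36 genes, against 17.8% of all genes, and above 0 for none, against 9.16%. At an unadjusted p under 0.05 the counts were 21 below and 0 above with limma, and voom gave 20 below and 0 above at the adjusted threshold. Over all 16236 genes, voom called 4382 in either direction. The largest differences were those of *EXO1* (log2 -1.7 ± 0.32 SE, adjusted p = 0.00234), *XRCC2* (-1.51 ± 0.26, adjusted p = 0.0014), *BRIP1* (-1.47 ± 0.24, adjusted p = 0.00102) and *BRCA1* (-1.3 ± 0.21, adjusted p = 0.00088). For each of them the negative CFPAC-1 samples were the lowest of the 4 groups. *FANCG* (-1.2), *BLM* (-1.17), *RAD51C* (-1.03), *RAD54L* (-1.02), *RAD51AP1* (-0.96) and *TOPBP1* (-0.93) followed, and the other 9 lay between -0.89 and -0.71. The median of the 36 was -0.72, compared with -0.15 over all genes, and centring each sample on its median moved these to -0.57 and 0. With 1 sample left out, the count called below 0 ran from 14, without SW1990 negative sample 1 or CFPAC-1 negative sample 2, to 22, without CFPAC-1 positive sample 3. Over all 16236 genes, those fits called 3648, 3441 and 5092 in either direction, in the same order, against 4374 with every sample. *BRCA2*, *DNA2* and *XRCC3* lost the call in most of the fits with 1 sample left out, and *MDC1*, *RAD51AP1* and *FANCC* in at least 1. The call of *BRCA2* was also lost with a pseudocount of 1, samples centred on their medians, quantile normalization and a replicate block. That of *DNA2* was also lost with no filter, centring, quantile normalization and the length trend removed. Among the genes called in neither direction were *ATM*, *ATR*, *CHEK2*, *TP53BP1* and the 3 MRN genes.

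The lines were then compared within each sorted population. These comparisons use the same samples as those above, and the negative CFPAC-1 samples in particular enter both. In negative cells 30 of the 36 genes were higher in SW1990 and 1 was lower, where 40.7% and 28.2% of all genes were called. The median difference was log2 0.69, compared with 0.19 over all genes, and the ratio of mean RPKM ran from 0.613 for *TP53BP1* to 5.43 for *XRCC2*. In positive cells 15 were higher and 7 lower in SW1990, where 32.9% and 29.3% of all genes were called, with a median of log2 0.21 compared with 0.06.

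**Figure D3:**
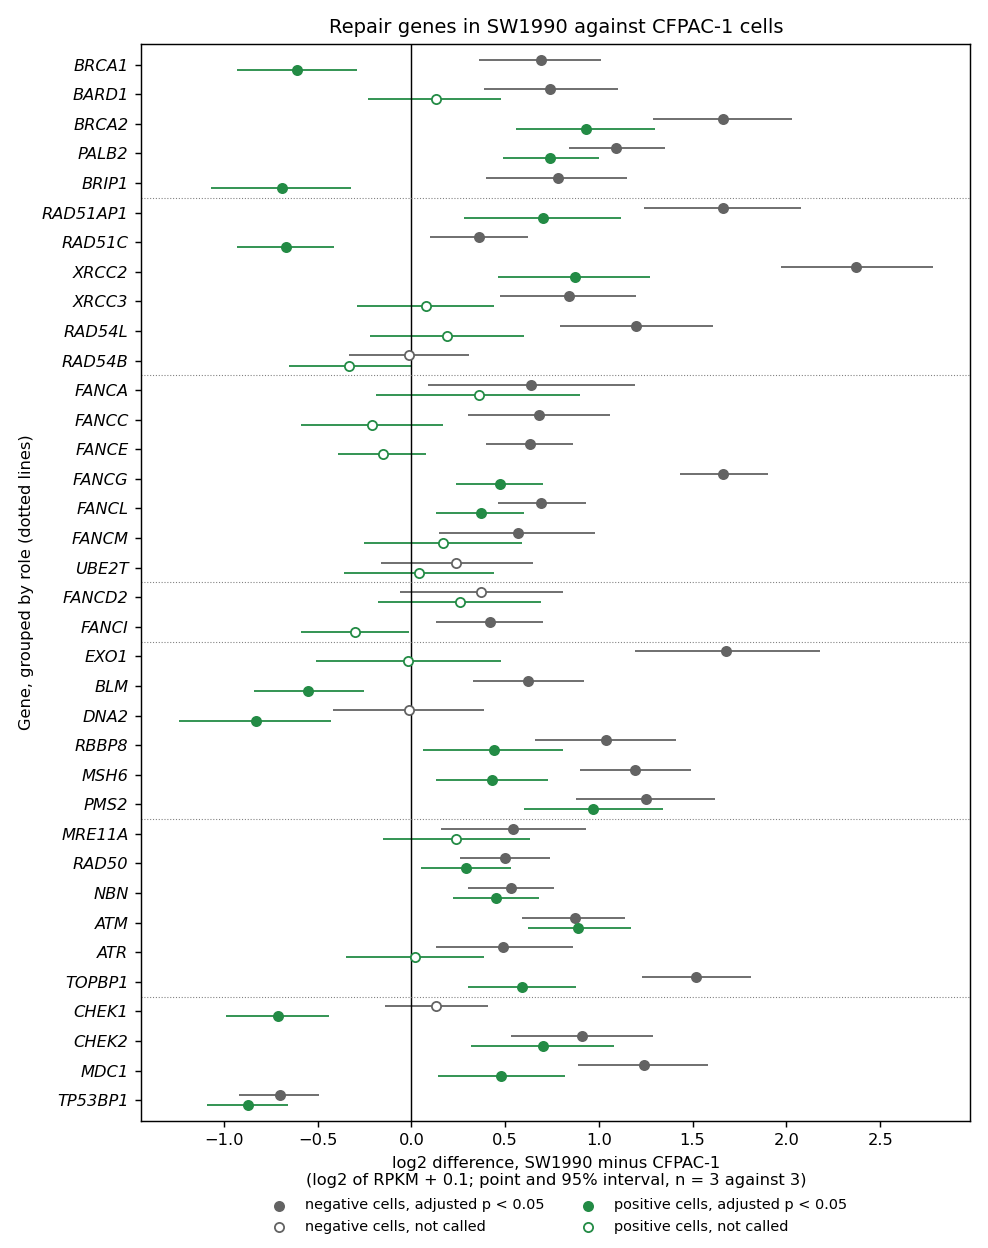
Difference of SW1990 minus CFPAC-1 (horizontal axis, log2 of RPKM + 0.1) for each of the 36 genes, with the 95% interval, in GCTM-5 negative (grey) and positive cells (green). Filled points have an adjusted p under 0.05. In negative cells 33 genes lie above 0, in positive cells 24, and TP53BP1 lies below 0 in both.

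In negative cells the largest differences between the lines were those of *XRCC2* (log2 2.37 ± 0.19, adjusted p = 2.98e-07), *EXO1* (1.68 ± 0.23), *FANCG* (1.66 ± 0.11) and *BRCA2* (1.66 ± 0.17). At the other end of those called stood *TP53BP1* (-0.7 ± 0.1, adjusted p = 4.46e-05), the only one lower in SW1990, followed by *RAD51C* (0.36), *FANCI* (0.42) and *ATR* (0.49). The calls of these last 3 were lost with samples centred on their medians, with quantile normalization, with the length trend removed and without SW1990 negative sample 1, that of *RAD51C* also without CFPAC-1 negative sample 1, those of *FANCI* and *ATR* without CFPAC-1 negative sample 2, and that of *ATR* without SW1990 negative sample 2. In positive cells *PMS2* (0.97 ± 0.17), *BRCA2* (0.93 ± 0.17), *ATM* (0.89 ± 0.13) and *XRCC2* (0.87 ± 0.19) were highest relative to CFPAC-1. *TP53BP1* (-0.87 ± 0.1), *DNA2* (-0.83 ± 0.19), *CHEK1* (-0.71 ± 0.12) and *BRIP1* (-0.69 ± 0.17) were lowest. *BRCA1*, *BRIP1* and *BLM* were called higher in SW1990 among negative cells and lower in SW1990 among positive cells, as was *RAD51C* apart from the alternatives just named. *ATM*, *PMS2*, *NBN* and *CHEK2* were among those called higher in SW1990 in both populations. For *EXO1* the difference among positive cells was log2 -0.02 (95% interval -0.51 to 0.48).

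Other genes of repair and of the cell cycle, none of them among the 36, were counted in the same fit. Over all genes, 22.3% were called higher and 14.2% lower in CFPAC-1, and 11.3% and 16.9% in SW1990. In CFPAC-1, 23 of 45 other homologous recombination and Fanconi genes were higher in positive cells and 1 was lower, with a median of log2 0.42. *STRA13*, a subunit of the Fanconi core (log2 1.85 ± 0.15), and *RMI2*, which works with *BLM* (1.51 ± 0.13), had the smallest p-values. Of 27 other checkpoint and break-signalling genes 15 were higher and none lower (16 and 0 at an unadjusted p under 0.05, 15 and 0 with voom), led by *CLSPN*, the mediator between *ATR* and *CHEK1*, at 1.02, 0.846 and 0.674 RPKM in negative and 8.57, 6.01 and 7.01 RPKM in positive CFPAC-1 cells (log2 2.95 ± 0.22). Of 13 end joining genes 6 were higher and 1 lower, of 5 other mismatch repair genes 2 were higher and none lower (3 and 0 at an unadjusted p under 0.05 and with voom), and of 34 base and nucleotide excision repair genes 17 were higher and 2 lower. Their medians, between log2 0.28 and 0.42, were below the 0.91 of the 36 genes. In SW1990 the counts, in the order of the lists above, were 5 higher and 3 lower of 45, 3 and 0 of 27, 3 and 1 of 13, 0 and 0 of 5, and 3 and 2 of 34, with medians between 0.01 and 0.21. For the lists of 27 and 5 genes the counts at an unadjusted p under 0.05 were 3 and 2 and 0 and 1, and voom called 3 and 0 and 0 and 0. At most 3 genes of any of these lists are also in the cell cycle lists below.

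Targets of p53 were called in both directions, as were all genes. In CFPAC-1, 8 of 25 targets were higher in positive cells and 6 lower, where 22.3% and 14.2% of all genes were called. *CDKN1A*, the inhibitor of cyclin-dependent kinases, was among the higher ones (log2 0.74 ± 0.13, adjusted p = 0.00108). In SW1990, 2 targets were higher and 7 lower, where 11.3% and 16.9% of all genes were called. *TP53INP1*, a stress-induced gene, was at 4.24, 4.72 and 7.79 RPKM in negative and 0.492, 1.08 and 0.679 RPKM in positive SW1990 cells (log2 -2.75 ± 0.35, adjusted p = 9.71e-05).

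Cell cycle genes moved with the 36 genes. All 37 S phase genes outside the 36 were called higher in positive CFPAC-1 cells, with a median of log2 1.62, and 49 of 54 G2/M phase genes, with a median of 0.77. *CDC6*, which loads the replicative helicase, was at 10.8, 10.8 and 11.3 RPKM in negative and 58.9, 44.3 and 59.5 RPKM in positive CFPAC-1 cells (log2 2.28 ± 0.14, adjusted p = 6.78e-06). In SW1990, 10 of 37 S phase genes were higher and none lower, with a median of 0.27, and 1 of 54 G2/M genes was higher and none lower, with a median of 0.17. At an unadjusted p under 0.05 limma gave 14 higher and 0 lower of the S phase genes and 11 and 0 of the G2/M genes in SW1990, and voom called 12 and 0 and 4 and 0. Over all 16236 genes, voom called 4975 in SW1990 in either direction. The change in SW1990 was called below that in CFPAC-1 for 34 of 37 S phase and 25 of 54 G2/M genes, against 17.8% of all genes. Among the genes not called, the estimate also lay below that in CFPAC-1 for every gene of both lists.

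In each list the negative CFPAC-1 samples were the lowest. The median S phase gene was at 7.59 to 8.02 RPKM in negative CFPAC-1 samples, and at 20.5 to 23.9 in positive CFPAC-1, 13.3 to 18.9 in negative SW1990 and 19.4 to 24.4 in positive SW1990 samples. The median of the 36 genes was at 4.32 to 4.95 RPKM in negative CFPAC-1 samples, and at 7.33 to 9.66, 7.08 to 8.87 and 7.68 to 9.3 RPKM in the other 3 groups. Within SW1990 negative cells, sample 1 was the highest of the 3 for 31 of the 36 genes and sample 3 the lowest for 29, and the S phase median was also highest in sample 1 (18.9 RPKM) and lowest in sample 3 (13.3 RPKM). Among positive SW1990 samples, sample 1 was the highest for 24 of the 36 genes and had the highest S phase median (24.4 RPKM). Among positive CFPAC-1 samples, sample 1 was the highest for 28 of the 36 genes and had the highest S phase median. Sample 3 of that group was the lowest for 20 of the 36 genes, but the S phase median was lowest in sample 2 (20.5 RPKM, against 21.1 in sample 3). In the negative CFPAC-1 group, sample 3 was the highest for 16 of the 36 genes. Its S phase median was the highest of that group in RPKM (8.02), but the lowest relative to the mean of each gene (log2 -1.09). The part of the phase genes in the differences of the 36 genes was not tested. In RNA from sorted populations, more cells of a phase and more RNA per cell cannot be told apart.

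**Figure D4:**
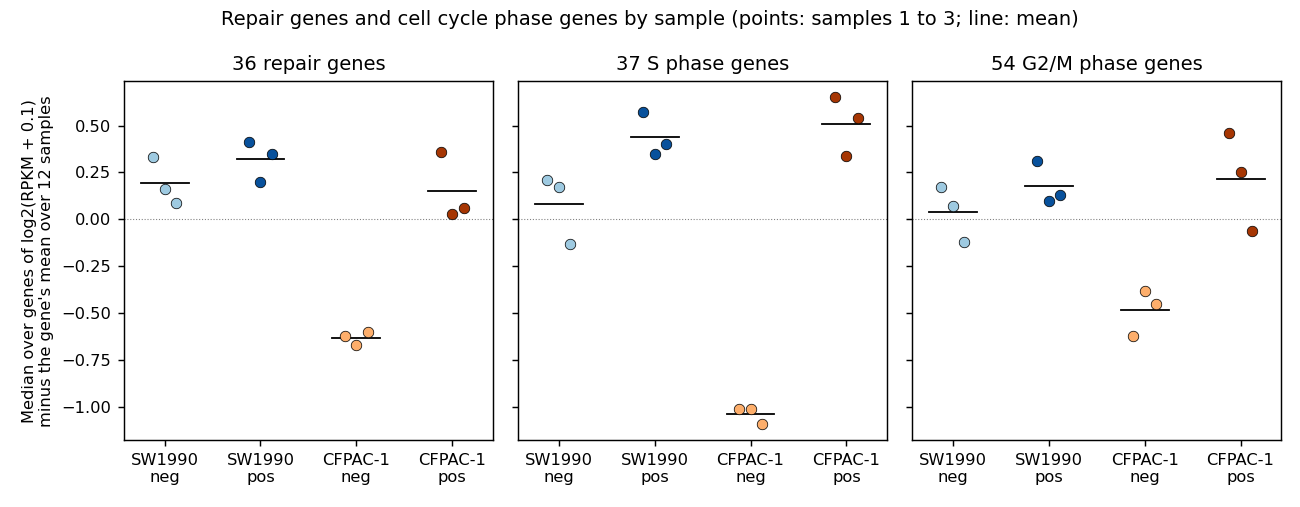
Level of the 36 genes, of 37 S phase genes and of 54 G2/M phase genes in each sample, as the median over genes of log2(RPKM + 0.1) minus the mean of the gene over 12 samples (vertical axis); lines are group means. The 3 CFPAC-1 negative samples lie at -0.67 to -0.6 for the 36 genes and at -1.09 to -1.01 for the S phase genes, below all other samples in both panels.

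The sums of ductal epithelial and mesenchymal markers separated positive from negative samples in SW1990, but their ranges overlapped in CFPAC-1. The summed level of 8 ductal epithelial markers was 1710 to 2020 RPKM in negative and 4860 to 5220 RPKM in positive SW1990 samples, and 6860 to 7830 and 7470 to 9200 RPKM in CFPAC-1. That of 5 mesenchymal markers was 1290 to 1450 and 201 to 372 RPKM in SW1990, and 551 to 752 and 420 to 589 RPKM in CFPAC-1. Much of the mesenchymal sum came from 1 marker, with a mean of 1210 RPKM in SW1990 negative and 598 RPKM in CFPAC-1 negative cells. The part of these markers in the results was not tested.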

How the data were processed

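The data are RNA-seq of 12 samples, 3 for each line and sorted population. The deposited RPKM values come from the authors, who mapped the reads to hg19 (GRCh37), counted them by gene in QuasR and divided by gene length and by the size of the library. The annotation, the use of strand and the treatment of reads with several matches are not given in the sources used here, and these could change the level of a gene that overlaps another or has close copies. The paper and the labels name different library kits, secondary antibodies and media, and no label gives a batch.

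Values were fitted as log2(RPKM + 0.1) for the 16236 genes whose mean was at least 0.1 RPKM, using limma 3.58.1 in R 4.3.3 with 4 group means and eBayes with a trend, 2-sided, adjusted by Benjamini-Hochberg over all genes and called at an adjusted p under 0.05. The study's detection of differentially expressed genes used TCC, which was not used here. Whole reads were recovered from the RPKM steps, within 0.01 of a read, for all 19654 genes above 0, and served for voom and for the number of reads. Depth ranged from 9969697 to 26159330 reads, and the error given is that between samples. Alternatives were other pseudocounts, filters, centring, quantile normalization, a replicate block, no trend, separate fits, voom, removal of the length trend, each sample left out in turn and the study's criterion. Python 3.11.15 with pandas 2.3.3, numpy 2.4.6 and matplotlib 3.10.9 was used for the rest.

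The 36 genes, the roles, the lists and the tests were chosen with earlier results of these data known, so no pattern here is independent support for one seen before. Genes named with a test were, in the comparisons of positive with negative cells and of the lines' changes, the called ones with the largest differences, at most 10 each, in the comparisons of the lines the top 4 and the bottom 4 of the called ones, and *BRCA1*, *BRCA2*, *ATM*, *ATR*, *CHEK1* and *CHEK2*. Of the other lists at most 3 genes with the smallest p were named. Further genes of the 36, given to account for each, were chosen after their values were seen. Overlaps of exons are from GENCODE 44 on GRCh37. Promoter windows are from RefSeq on GRCh38.p14 and their coordinates were not moved between builds.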

Additional observations from a re-analysis of the deposited data

Results flagged for a closer look

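The change with the GCTM-5 antigen differed between the lines, by limma's test of the difference itself at an adjusted p under 0.05, for 19 of the 36 genes, against 17.8% of all genes called in this direction. The difference in SW1990 minus that in CFPAC-1 was -1.7 on the log2 scale for *EXO1*, -1.51 for *XRCC2*, -1.47 for *BRIP1*, -1.3 for *BRCA1*, -1.2 for *FANCG* and -1.17 for *BLM*. It was -1.03 for *RAD51C*, -1.02 for *RAD54L*, -0.96 for *RAD51AP1*, -0.93 for *TOPBP1*, -0.89 for *FANCC*, -0.85 for *CHEK1* and -0.82 for *DNA2*. The smallest were -0.78 for *FANCE*, -0.77 for *MSH6*, -0.76 for *XRCC3*, -0.75 for *MDC1*, -0.73 for *BRCA2* and -0.71 for *FANCI*. The calls of *BRCA2*, *DNA2* and *XRCC3* were lost in most of the fits with 1 sample left out. Of the S phase genes, 34 of 37 were called in the same direction, and their part in these 19 differences was not tested.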

How the results depend on the processing

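No difference called among the 36 genes changed sign under any alternative. The count of the 36 genes called in SW1990 was 5. It was 9 with the length trend removed, 0 with the study's criterion, and 2 to 8 with 1 sample left out: 8 without CFPAC-1 positive sample 3, the shallowest library, 2 without SW1990 negative or positive sample 3, and 3 without SW1990 positive sample 1 or 2 or any CFPAC-1 negative sample. Over all 16236 genes, 4581 were called in SW1990, 4613 with the length trend removed and 5416 without CFPAC-1 positive sample 3. Without SW1990 negative sample 3 it was 3498 of all genes, and without SW1990 positive sample 3 it was 3627. With the study's criterion the count of the 36 genes was 17 in CFPAC-1 (27 by adjusted p), 8 for the difference between lines (19), 12 for the lines in negative cells (31) and 0 for the lines in positive cells (22). For the difference between lines and the lines in either population, the share of all genes by that criterion was not counted. By adjusted p, 4374, 11181 and 10113 of all genes were called in these comparisons, in the same order. The median difference between lines in negative cells, log2 0.69, was 0.5 with samples centred on their medians and 0.51 with quantile normalization, which moved the median of all genes from 0.19 to 0.01 and 0.04. The cause of these shifts was not tested.

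Deviations of same-numbered samples of the 2 populations correlated at 0.185, 0.016 and 0.116 in SW1990, where other pairings gave -0.254 to 0.162. In CFPAC-1 they correlated at -0.02, 0.001 and -0.059, where other pairings gave -0.033 to 0.042. The numbers were not taken as pairs, but a weak link between same-numbered SW1990 samples is not excluded. With a replicate block 2 genes were called higher and 2 lower in SW1990, 24 and 1 in CFPAC-1, 0 and 18 for the difference between lines, 30 and 1 for the lines in negative cells and 15 and 8 in positive cells. Over all 16236 genes, 4386, 5729, 4130, 11331 and 10343 were called with the block, in the same order. Without it these were 4581, 5929, 4374, 11181 and 10113. *FANCE* lost its call in SW1990, *FANCD2* and *ATR* theirs in CFPAC-1 and *BRCA2* that for the difference between lines, and *FANCI* was added in positive cells. The shallowest library, CFPAC-1 positive sample 3, holds 9969697 reads, and the part of depth in these calls was not tested.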
